A study of Mus musculus with 3 samples.

Results

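Collagen chain genes were followed across 3 lung RNA sequencing libraries, 1 each of control, PM10 and OVA+PM10 mice. They were chosen by symbol (Col, a type number, the letter a and a chain number), which found 44 of the 23183 genes, and 26 of these had at least 1 FPKM in at least 1 library. FPKM, fragments per kilobase of transcript and library size, is meant to correct a level for transcript length, so that different chains can be set side by side. Ratios between libraries still followed transcript length (described last), so such comparisons are approximate. Of the 26 chains, 7 form fibrils, 5 are type IV chains of basement membranes, and 14 belong to other types. The other 18 stayed below 1 FPKM in every library. The chain just inside the limit was Col5a3, with a highest value of 1.18 FPKM, and those just outside were Col6a6 (0.883 FPKM) and Col28a1 (0.802 FPKM). Of the 26, 5 passed through a single library (Col5a3, Col12a1 and Col17a1 through the control, Col27a1 through the PM10 and Col6a5 through the OVA+PM10 library), so that these had to differ between libraries, and counts over the 26 are given as a description.

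All mice were female BALB/c, aged 10 weeks by one label and 5 to 6 weeks by another, and the tissue was lung. Control mice are labelled as such, and no vehicle is given for them. Mice of the PM10 library received a certified reference dust of the PM10 size class (ERMCZ-120) in saline through the nose, 4 times within 2 weeks, at 100 or 200 µg. Mice of the OVA+PM10 library received the same dust and were made allergic to ovalbumin (OVA, egg-white protein). They were sensitised by intraperitoneal injection of 20 µg with aluminium hydroxide on day 0 or 1 (the sources differ) and day 14, then challenged through the nose on days 21, 22 and 23, with tissue taken 2 days later. The labels name 5 mice per group, and do not say which dose was sequenced or whether a library held RNA of 1 mouse or of several. No mice given OVA alone were analysed here.

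Collagens are the main structural proteins of the lung scaffold, built from chains that wind around each other as a rope-like helix. Fibrillar collagens form the load-bearing cables of airway walls, vessels and pleura, and are made chiefly by fibroblasts and smooth muscle cells. Type IV collagen forms the sheet-like network of basement membranes, which in the alveolus is shared by capillary endothelium and epithelium. Deposition of fibrillar collagen below the airway epithelium is a known feature of asthma.

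The low values of each library implied about 20100000 reads in the control, 13200000 in the PM10 and 15300000 in the OVA+PM10 library, from the approximate value of 1 read. Because there was 1 library per group, no p-value or standard error could be given, and each ratio compares libraries and not treatments. Where 3 values follow each other without names, they stand for control, PM10 and OVA+PM10, in that order. A log2 ratio is that of FPKM + 1, which understates changes of low genes. A chain was counted as higher or lower when this ratio reached 2-fold (1 on the log2 scale) and the higher value was 1 FPKM or more. The median gene lay near 0 in each comparison (0.02, -0.0017 and -0.03). In lung homogenates, fewer cells of a type and less RNA per cell cannot be told apart.

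The collagen transcripts did not move as one group. In the PM10 library, 12 of 25 chains that could be compared lay at least 2-fold below control and 1 above, against 13.9% and 13.6% of all 13693 genes compared. In the OVA+PM10 library, 3 of 25 chains were higher than in the control library (all genes, 9.95%) and 6 were lower (8.68%). The 3 higher were the fibrillar chains Col1a1 and Col3a1 and the type VI chain Col6a5. The 6 lower were Col4a2, Col4a3, Col4a4, Col12a1, Col13a1 and Col17a1. Between the exposed libraries, 10 of 23 chains were at least 2-fold higher in the OVA+PM10 library (all genes, 11.8%) and 1 was lower (9.00%). Of the 26 chains, 14 had their highest value in the control, 10 in the OVA+PM10 and 2 in the PM10 library, and 19 had their lowest value in the PM10 library.

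**Figure D1:**
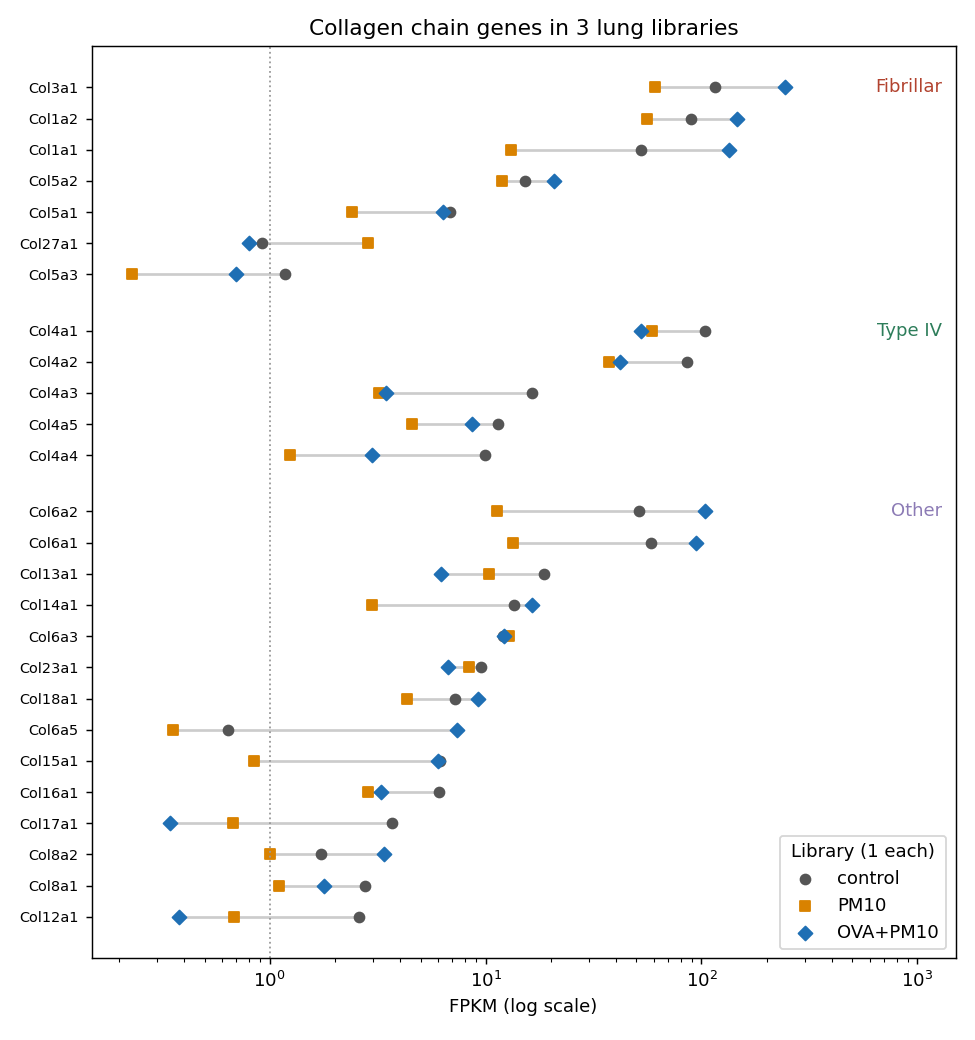
FPKM of the 26 collagen chain genes on a log axis, 1 point per library, with a line from the lowest to the highest value of a gene and the limit of 1 FPKM dotted. Col3a1, Col1a1 and Col1a2 are highest in the OVA+PM10 library, and all 5 type IV chains are highest in the control library.

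Summed by class, fibrillar chains held the largest share of collagen FPKM in each library. Single chains were not all abundant, and Col4a1, Col4a2 and Col6a1 ranked above Col1a1 in the control and PM10 libraries. Col3a1, the single chain of type III collagen, which gives elastic tissues their fine fibrils (chromosome 1, 45311538 to 45349706 on mm10, 51 exons), had 116 FPKM in the control, 60.7 FPKM in the PM10 and 243 FPKM in the OVA+PM10 library. It was the most abundant collagen transcript of all 3 libraries. Its log2 ratio to control was -0.92 with PM10 and 1.06 with OVA+PM10, the second just past 2-fold. Col1a1, the major chain of type I collagen (chromosome 11, 94936224 to 94953042, 51 exons), had 52.5, 13.1 and 135 FPKM. The OVA+PM10 library was thus 2.57 times the control library and 10.3 times the PM10 library, and the PM10 library 4.02 times below the control library. Its partner Col1a2 (chromosome 6, 4504814 to 4541544) had 89.1, 56.0 and 147 FPKM, the same order of libraries with a narrower spread. With libraries scaled to equal summed FPKM, Col1a1 and Col3a1 stayed above control in the OVA+PM10 library but at log2 ratios of 0.71 and 0.42, below 2-fold, and Col1a2 stood at 0.07.

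The minor fibrillar chains, which sit inside type I fibrils and set their width, differed less from control with OVA+PM10 as deposited. Col5a2 had 15.2, 11.9 and 20.8 FPKM, and Col5a1 had 6.81, 2.41 and 6.38 FPKM. Col5a1 was therefore close to its control level in the OVA+PM10 library and 2.83 times lower in the PM10 library. With equal summed FPKM, Col5a2 and Col5a1 stood at -0.19 and -0.67 on the log2 scale for OVA+PM10 against control. Col5a3, a rarer type V chain, had 1.18, 0.231 and 0.697 FPKM, or roughly 146, 19 and 65 reads. Col27a1, a fibrillar chain known chiefly from cartilage, ran the other way, with 0.920, 2.84 and 0.803 FPKM. Its log2 ratio of 1.00 for PM10 against control lay on the 2-fold limit and rested on about 141 and 286 reads. The cartilage chains Col2a1, Col11a1 and Col11a2, and Col24a1, stayed at or below 0.252 FPKM in every library.

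All 5 type IV chains were lower in both exposed libraries than in the control library. Col4a1, which with Col4a2 makes the type IV network of nearly all basement membranes (chromosome 8, 11198423 to 11312826), had 104, 59.0 and 52.4 FPKM. Col4a2 (chromosome 8, 11312805 to 11449287) had 85.5, 37.4 and 41.9 FPKM. The pair thus lay at similar distances below control in both exposed libraries, with log2 ratios of -0.81 and -1.17 for PM10 and of -0.98 and -1.01 for OVA+PM10. With the trend over transcript length removed (described last), Col4a2 stood at -0.73 with OVA+PM10. The pair is read in opposite directions, and the annotated first exons share 22 bases, so reads there cannot be assigned without strand, whose use the sources do not state. Col15a1, Col4a3 and Col5a1 also overlap exons of transcripts on the opposite strand.

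Of the second type IV network, Col4a3 and Col4a4 lay further below control than the other type IV chains in both exposed libraries, and Col4a5 did not. Col4a3, Col4a4 and Col4a5 build the network that kidney glomeruli and lung alveoli share, and mutations in them cause Alport syndrome. Col4a3 (chromosome 1, 82586921 to 82722059) had 16.4, 3.21 and 3.47 FPKM, 5.12 and 4.73 times below control. Col4a4 (chromosome 1, 82448423 to 82586849) had 9.96, 1.24 and 2.98 FPKM, 8.02 and 3.35 times below control. Col4a5, encoded on chromosome X (141475385 to 141689234), had 11.5, 4.57 and 8.68 FPKM and so differed from control by 2.51 and 1.32 times. Col4a6 stayed at or below 0.109 FPKM.

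Col4a3 and Col4a4 are transcribed away from each other from starts that lie 71 bases apart, and the stretch between them is shown because these chains had the lowest ratios of the type IV group. Upstream windows of 250 bases are shown for Col3a1, the most abundant chain, and for Col6a5, which had the highest ratio of OVA+PM10 against control. A window is also shown for Col6a3, which stayed level as deposited while its partners did not. The sequences are from the RefSeq promoter table (GRCm38.p6), 5′ to 3′ on the strand of the gene named first, and end at the base before the annotated start (for the shared stretch, the start of Col4a4, so that its first letter lies next to Col4a3).
Col4a4 to Col4a3 (chr1:82586850-82586920, minus strand): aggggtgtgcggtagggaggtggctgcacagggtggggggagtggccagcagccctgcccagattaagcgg
Col3a1 (chr1:45311288-45311537, plus strand): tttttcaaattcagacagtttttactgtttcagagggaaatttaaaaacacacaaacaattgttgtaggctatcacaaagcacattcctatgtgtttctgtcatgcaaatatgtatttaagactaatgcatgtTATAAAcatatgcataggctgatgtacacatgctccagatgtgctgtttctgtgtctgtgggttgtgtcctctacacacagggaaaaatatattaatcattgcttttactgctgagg
Col6a5 (chr9:105960644-105960893, minus strand): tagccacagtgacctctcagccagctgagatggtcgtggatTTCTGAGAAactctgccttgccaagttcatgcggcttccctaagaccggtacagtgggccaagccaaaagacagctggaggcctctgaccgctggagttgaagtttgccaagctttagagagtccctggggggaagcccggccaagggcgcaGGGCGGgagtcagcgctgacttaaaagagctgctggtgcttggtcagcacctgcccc
Col6a3 (chr1:90843972-90844221, minus strand): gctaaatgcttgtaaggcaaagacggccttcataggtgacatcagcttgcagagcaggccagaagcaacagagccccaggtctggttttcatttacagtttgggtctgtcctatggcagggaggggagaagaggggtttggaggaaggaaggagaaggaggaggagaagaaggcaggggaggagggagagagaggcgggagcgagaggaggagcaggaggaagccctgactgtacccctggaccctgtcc

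Capitals mark matches on either strand to 4 short motifs. They are CCAAT, bound by the factor NF-Y, then GGGCGG, the core of the site known for the factor Sp1, then TATAAA, the core promoter motif near many starts, and lastly TTCNNNGAA, where N is any base, known for STAT factors. The TATA motif of the Col3a1 window lies 117 to 112 bases before the annotated start, and the STAT motif of the Col6a5 window 209 to 201 bases before it, with the Sp1 motif at 57 to 52. No match was found in the Col6a3 window or between Col4a3 and Col4a4. Of 32851 windows of 250 bases in the table, 33.8% held the first motif, 32.7% the second, 12.4% the third and 7.02% the last. Windows were found for 21 of the 26 chains, and of these 23 windows 8, 14, 3 and 1 did so. The sequence composition differed widely, with 35.2% G and C in the Col3a1 window, 57.2% in the Col6a3 window and 58.8% in the Col6a5 window. A match is a description of the letters and not a binding site.

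**Figure D2:**
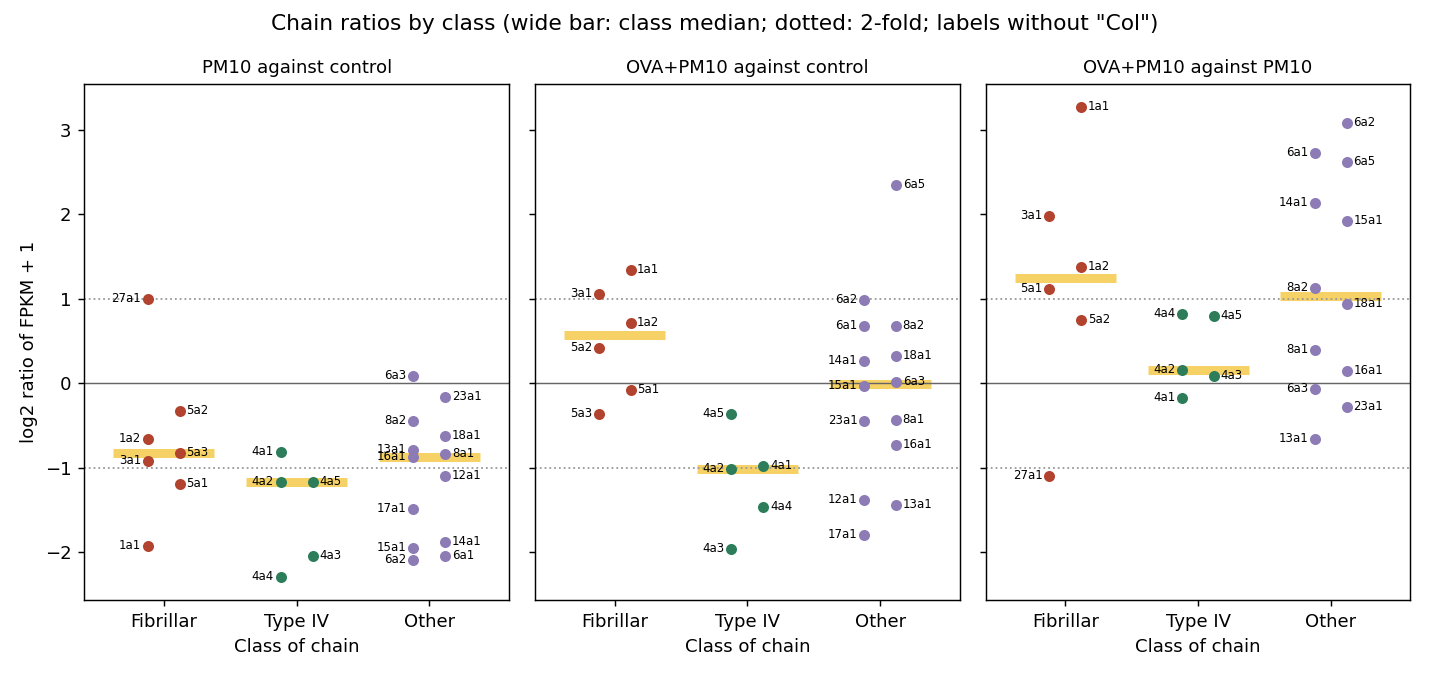
log2 ratio of FPKM + 1 for each chain that could be compared, by class and comparison, with a wide bar at the class median and dotted lines at 2-fold. Against control in the OVA+PM10 library the fibrillar median is 0.57 as deposited (-0.06 with libraries scaled to equal summed FPKM) and the type IV median -1.01.

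The type VI chains, which form beaded filaments that anchor cells to the surrounding matrix, split. Col6a1 (chromosome 10, 76708792 to 76726168) had 58.6, 13.4 and 94.4 FPKM. Col6a2, its neighbour on the chromosome (76595762 to 76623630), had 51.6, 11.3 and 103 FPKM. With PM10 they lay 4.36 and 4.57 times below control, and 1.61 and 2.01 times the control level in the OVA+PM10 library. Col6a3, the large chain that joins them in the standard type VI filament (chromosome 1, 90765923 to 90843971), had 12.0, 12.8 and 12.2 FPKM. Its 3 values lay within 1.07 times of each other as deposited. With libraries scaled to equal summed FPKM, however, its log2 ratios to control became -1.08 with PM10 and -0.60 with OVA+PM10. Under that scaling Col6a1 stood at -3.25 and 0.04, and Col6a2 at -3.29 and 0.35.

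Col6a5, a chain that can take the place of Col6a3 (chromosome 9, 105856078 to 105960643), had 0.642, 0.359 and 7.34 FPKM. The OVA+PM10 library was 11.4 times the control library and 20.5 times the PM10 library, from about 120, 44 and 1045 reads. By level it ranked 26 of 26 chains in control lung and 13 with OVA+PM10. As it passed the limit of 1 FPKM only in the OVA+PM10 library, a low rank in the control library was bound to follow. Of its related neighbours on chromosome 9, Col6a6 had the same order of libraries below 1 FPKM, at 0.580, 0.020 and 0.883 FPKM (about 102, 2 and 119 reads). That was 1.52 times control with OVA+PM10. Col6a4 had 0.137, 0.131 and 0.073 FPKM.

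Collagens attached to fibril surfaces, a group called FACIT, also went apart. Col14a1, which binds type I fibrils (chromosome 15, 55307750 to 55520803), had 13.6, 2.97 and 16.5 FPKM. Col12a1, a chain of tissues under tension, had 2.59, 0.684 and 0.381 FPKM, and Col16a1 6.08, 2.87 and 3.28 FPKM. Col14a1 thus followed the order of the major fibrillar chains as deposited (with equal summed FPKM it lay below control with OVA+PM10, at -0.35 on the log2 scale), and Col12a1 had its lowest value in the OVA+PM10 library. The cartilage FACIT chains Col9a1, Col9a2 and Col9a3 stayed at or below 0.267 FPKM.

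The multiplexins Col15a1 and Col18a1 belong to vessel and epithelial basement membrane zones, and Col18a1 gives rise to the fragment endostatin. Col15a1 (chromosome 4, 47208161 to 47313167) had 6.17, 0.850 and 6.00 FPKM, 7.26 times lower in the PM10 library and 1.03 times in the OVA+PM10 library. Col18a1 had 7.19, 4.33 and 9.24 FPKM. As deposited, neither shared the low values of most type IV chains in the OVA+PM10 library. With equal summed FPKM, Col15a1 and Col18a1 stood at -0.62 and -0.26 on the log2 scale there, and the type IV median at -1.66. The short-chain Col8a1 had 2.75, 1.11 and 1.78 FPKM, and Col8a2, its partner in vessel and corneal matrix, 1.73, 1.00 and 3.38 FPKM.

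The 3 membrane-spanning chains, which stay anchored in the cell surface, were lower in both exposed libraries than in the control library. Col13a1, which is also a marker of alveolar fibroblasts (chromosome 10, 61838236 to 61979108), had 18.6, 10.4 and 6.21 FPKM, 2.99 times below control in the last. Col23a1 had 9.48, 8.36 and 6.72 FPKM and stayed within 2-fold. Col17a1, the hemidesmosome collagen of basal epithelial cells (chromosome 19, 47646344 to 47692094), had 3.69, 0.676 and 0.347 FPKM, from about 414, 50 and 30 reads. Most markers of stratified squamous epithelium were lower in both exposed libraries, as Col17a1 was. Their summed level was 4662 FPKM in the control, 2.33 FPKM in the PM10 and 9.90 FPKM in the OVA+PM10 library, with 13 of 13 and 12 of 13 markers at least 2-fold lower. The exception was Itgb4, at 4.51, 0.807 and 6.82 FPKM, which lay above control with OVA+PM10, where Col17a1 had its lowest value. Krt13 (2574, 0 and 0.11 FPKM) and Krt4 (1171, 0.212 and 0.79 FPKM) were the most abundant, and Krt13 was listed at 0 in the PM10 library. Their part in the Col17a1 values was not tested. The anchoring fibril chain Col7a1, another product of squamous epithelium, had 0.296, 0.068 and 0.111 FPKM.

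Set side by side, the classes differed most in the OVA+PM10 library. Summed over the 44 genes, collagen transcripts had 707 FPKM in the control, 325 FPKM in the PM10 and 937 FPKM in the OVA+PM10 library. The summed FPKM of all genes differed between libraries. As a share of it, the collagen sum was 0.129%, 0.0252% and 0.109%, so that on this scale the OVA+PM10 library lay below the control library. The fibrillar sum was 282, 148 and 553 FPKM, and the type IV sum 228, 105 and 109 FPKM. Fibrillar chains therefore held 39.9%, 45.4% and 59.1% of collagen FPKM, type IV chains 32.2%, 32.4% and 11.7%, and the others 27.9%, 22.2% and 29.2%. The fibrillar sum was 1.24 times the type IV sum in the control, 1.40 times in the PM10 and 5.05 times in the OVA+PM10 library, a value that no scaling between libraries can alter. The PM10 library thus had less of both classes in a nearly control-like proportion, while the proportion in the OVA+PM10 library was 4.08 times that of the control library.

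**Figure D3:**
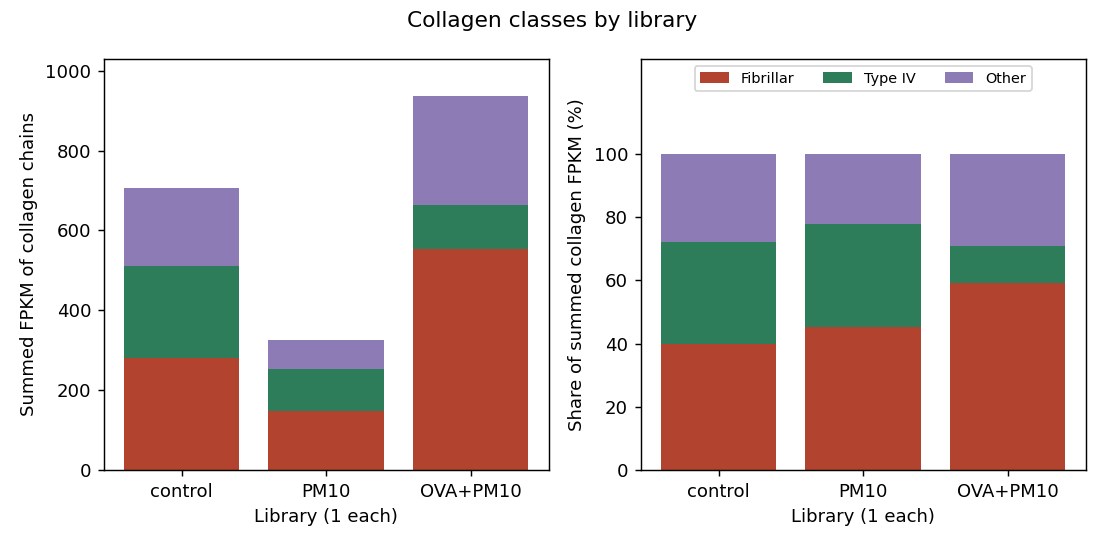
Summed FPKM of the 44 collagen chain genes by class (left) and the share of each class in that sum (right), 1 bar per library. The type IV share is 32.2% in the control, 32.4% in the PM10 and 11.7% in the OVA+PM10 library.

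By chain, the median log2 ratio of PM10 against control was -0.83 over 7 fibrillar, -1.17 over 5 type IV and -0.87 over 13 other chains. For OVA+PM10 against control it was 0.57 over 6 fibrillar chains as deposited (-0.06 with equal summed FPKM, where the median gene lay at -0.58, and at -1.05 with PM10), -1.01 over 5 type IV and -0.01 over 14 other chains. The fibrillar median thus lay 1.58 above the type IV median in that comparison, and 0.34 above it with PM10. Between the exposed libraries (OVA+PM10 over PM10) the medians were 1.24, 0.16 and 1.04 over 6, 5 and 12 chains. Both comparisons with control use the same control library, so a deviation of that library enters each of them.

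Chains that assemble together kept their ratio to different degrees, measured inside each library and so free of any scaling between libraries. The trend over transcript length (described last) can still enter these ratios. Col4a1 stood at 1.22, 1.58 and 1.25 times Col4a2. Col6a1 stood at 1.14, 1.19 and 0.912 times Col6a2. These pairs, each of neighbouring genes, spanned 1.29 and 1.30 times from the lowest to the highest ratio. Col1a1 stood at 0.589, 0.233 and 0.918 times Col1a2, a span of 3.94 times, although the type I protein uses more of the first chain than of the second. Col6a1 stood at 4.87, 1.05 and 7.76 times Col6a3, a span of 7.41 times. Col4a3 stood at 1.65, 2.58 and 1.17 times Col4a4. That span was 2.21 times, although these genes are neighbours as well.

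**Figure D4:**
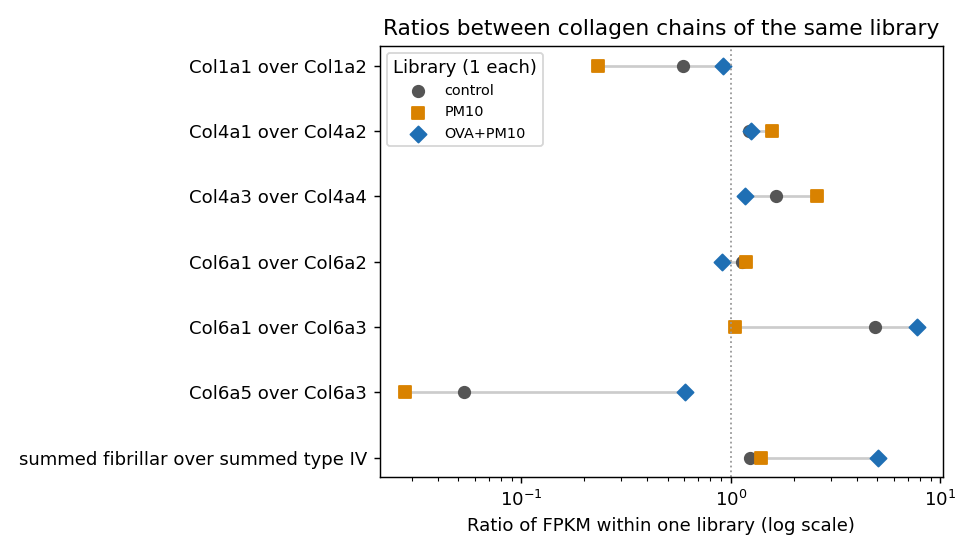
Ratio of FPKM between collagen chains, or between summed classes, within each library on a log axis, 1 point per library. Col4a1 over Col4a2 and Col6a1 over Col6a2 span 1.29 and 1.30 times, and Col4a3 over Col4a4 spans 2.21 times. Col1a1 over Col1a2, Col6a1 over Col6a3 and Col6a5 over Col6a3 span 3.94, 7.41 and 21.6 times.

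Of all genes compared with control, 13.9% were lower and 13.6% higher with PM10, and 8.68% lower and 9.95% higher with OVA+PM10, and the counts of the pathway and marker lists are to be read against these shares. Of 14 hydroxylases and glycosyltransferases compared with control, 2 were lower and none higher with PM10, and 2 were lower and 1 was higher with OVA+PM10. The lysyl hydroxylase Plod2, which prepares telopeptides for crosslinks, had 13.8, 5.39 and 4.61 FPKM, and Ppib, a prolyl isomerase of the collagen-folding complex, 89.9, 103 and 188 FPKM. The glycosyltransferase Colgalt2 had 6.06, 4.89 and 1.51 FPKM. The prolyl hydroxylase subunit P4ha1 had 18.3, 21.4 and 10.1 FPKM, and P3h1, which modifies proline in collagen, 5.08, 2.88 and 4.85 FPKM. Among 10 chaperone and export genes, 1 was lower in the PM10 and 1 higher in the OVA+PM10 library. The higher one was Creb3l1, a transcription factor that drives type I collagen synthesis and secretion in bone, at 7.96, 3.72 and 32.8 FPKM, the same order of libraries as Col1a1. The export factors Ctage5 and Mia3, which load collagen into transport carriers, had 24.6, 10.7 and 25.6 FPKM and 14.8, 7.96 and 20.0 FPKM. The coat genes Sec13 and Sec31a, of the vesicles that leave the endoplasmic reticulum, had 58.4, 78.2 and 102 FPKM and 28.5, 17.5 and 32.0 FPKM.

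Of 5 genes for the removal of propeptides, none was past 2-fold in the PM10 library and 1 was lower in the OVA+PM10 library. That gene was Pcolce2, an enhancer of procollagen processing, at 104, 151 and 40.4 FPKM. The procollagen proteinases Bmp1 (7.62, 5.52 and 6.39 FPKM) and Adamts2 (5.55, 4.16 and 7.65 FPKM) and the enhancer Pcolce (61.1, 61.7 and 57.7 FPKM) stayed within 2-fold. Of 6 crosslinking genes, 1 was lower in the OVA+PM10 library. It was Pxdn, the peroxidase that forms the sulfilimine bond of type IV collagen, at 21.1, 15.2 and 7.19 FPKM. Its lowest value fell in the library with the smallest type IV share, although the type IV sum was similar with PM10 (105 FPKM) and OVA+PM10 (109 FPKM). The lysyl oxidases Lox (8.94, 13.8 and 9.89 FPKM) and Loxl1 (21.2, 32.4 and 25.8 FPKM), which crosslink fibrillar collagen and elastin, stayed within 2-fold of control. So did Loxl2 (7.77, 7.32 and 6.49 FPKM) and the transglutaminase Tgm2 (136, 157 and 105 FPKM).

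Of 10 collagen receptor genes that could be compared with control, 3 were lower in each exposed library and none was higher. Among genes as long as the collagen chains, 17.8% were lower with PM10 and 9.31% with OVA+PM10, and Itga1 (10967 bases) and Ddr2 (8590 bases) have long transcripts. Itga1, the integrin chain that favours type IV collagen, had 36.0, 10.1 and 11.5 FPKM. Ddr2, a receptor tyrosine kinase for fibrillar collagen, had 13.1, 6.42 and 5.49 FPKM, and Ddr1, its epithelial relative, 12.6, 5.25 and 13.6 FPKM. Cd36, a scavenger receptor that binds collagen, had 355, 286 and 169 FPKM, and Itgb1, the partner of Itga1, 193, 133 and 104 FPKM. Of 10 genes that regulate fibrils, 4 were lower in each exposed library and 1, the fibronectin gene Fn1 (42.8, 56.9 and 88.3 FPKM), was higher in the OVA+PM10 library. The largest distances of all these lists belonged to Dcn and Lum, small proteoglycans that bind type I fibrils. Dcn, decorin, had 246, 8.40 and 91.8 FPKM, and Lum, lumican, 38.6, 1.38 and 5.22 FPKM. Both had their lowest value with PM10, as Col1a1 did, but stayed below control with OVA+PM10, where Col1a1 was above it. The small proteoglycans Bgn (219, 157 and 224 FPKM) and Fmod (4.42, 5.92 and 4.09 FPKM) of the same list stayed within 2-fold of control. Tnxb, tenascin X, had 9.60, 2.34 and 3.09 FPKM, and Dpt, dermatopontin, 110, 81.6 and 66.7 FPKM.

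Markers of endothelium and of alveolar type 1 cells, which rest on the alveolar basement membrane, were lower with OVA+PM10, as the type IV chains were. Against control, smooth muscle markers gave no single direction with OVA+PM10, and no fibroblast marker was 2-fold higher. Between the exposed libraries, 7 of 12 smooth muscle markers were higher with OVA+PM10 (all genes, 11.8%) and none was lower (9.00%). Of 12 endothelial markers, 7 were at least 2-fold lower than in the control library and none higher, with a summed level of 1573 FPKM in the control, 2281 FPKM in the PM10 and 856 FPKM in the OVA+PM10 library. Cldn5, the most abundant, had 265, 838 and 221 FPKM. Of the 12 markers of alveolar type 1 cells, 10 were below control by that margin and none above, with a sum of 3269, 3992 and 1351 FPKM, and Ager had 1228, 1777 and 639 FPKM. In the PM10 library, where the type IV chains were also low, 3 endothelial and 3 alveolar type 1 markers were lower than in the control library and 4 and 1 were higher. Long transcripts were lower in general in that library (described last). The higher endothelial markers were Car4 (1256 bases), Cldn5 (1416 bases), Egfl7 (1865 bases) and Emcn (3521 bases). The lower ones were Cdh5 (3995 bases), Kdr (5924 bases) and Flt1 (6895 bases). Of the alveolar type 1 markers, Pdpn (1817 bases) was higher, and Vegfa (3451 bases), Clic5 (5862 bases) and Akap5 (6687 bases) were lower. The part of length in these counts was not tested. Of 12 smooth muscle and pericyte markers, 8 were lower in the PM10 library and none higher, while 3 (Des, Notch3 and Rgs5) were lower and 1 (Acta2) higher in the OVA+PM10 library. Their sum was 665, 349 and 848 FPKM. Tagln, the most abundant, had 172, 177 and 324 FPKM, Acta2 82.8, 32.0 and 202 FPKM, and Des 199, 39.6 and 71.4 FPKM, so that these 3 did not share 1 order of libraries. Myh11 (42.1, 8.37 and 68.7 FPKM), Cnn1 (30.5, 8.21 and 40.6 FPKM) and Actg2 (36.8, 18.0 and 74.4 FPKM) had the order of Acta2 and Col1a1. The other markers of this list did not. Des was highest in the control library, which alone was rich in skeletal muscle markers (given below). The part of these cell types in the collagen values was not tested.

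Fibroblast markers, which include Dcn and Lum, gave no single direction with PM10, where 5 of 15 were below control and 3 above, and 6 were lower and none higher in the OVA+PM10 library. Their sum of 2864, 5808 and 1614 FPKM rested mostly on Inmt, at 1771, 4513 and 827 FPKM. The 3 above control with PM10 were Inmt (1077 bases), Mfap4 (1770 bases) and Tcf21 (1788 bases). The 5 below it had transcripts of 2448 (Lum) to 6834 (Pdgfra) bases. The summed level was lowest in the OVA+PM10 library, where the fibrillar sum was highest. Pi16 (18.1, 2.13 and 21.0 FPKM), Mfap5, Twist2 and, below 1 FPKM, Gli1 had the order of libraries of Col1a1, however. The other members did not. Between the exposed libraries, 4 of 15 markers were higher with OVA+PM10 (all genes, 11.8%) and 4 lower (9.00%). The cartilage markers were mixed. Chad had 9.57, 9.41 and 113 FPKM, Cytl1 44.4, 56.5 and 25.6 FPKM, and Matn4 15.9, 20.9 and 6.87 FPKM, while Acan, the main cartilage proteoglycan, was listed at 0 in every library. Of the cartilage markers compared with control, none of 4 was past 2-fold with PM10, and 1 of 5 was higher and 1 lower with OVA+PM10. The control library alone was rich in skeletal muscle markers (a sum of 3991 FPKM, against 22.6 and 32.9 FPKM) and held more adipose markers (494 FPKM, against 138 and 201 FPKM). All 12 muscle markers were lower in both exposed libraries, and 9 and 7 of 10 adipose markers in the PM10 and OVA+PM10 libraries. Muscle and adipose tissue hold collagen of their own, and their part in the control values was not tested. The lung epithelial genes Scgb1a1, of club cells, and Sftpc, of alveolar type 2 cells, stood at 42979, 50391 and 65012 FPKM and at 22645, 56646 and 24439 FPKM.

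Collagen transcripts are long, and long transcripts were lower in general in the exposed libraries. Of the 26 chains, 21 fell in the 2 longest of 10 equal length classes, whose median log2 ratios were -0.49 and -0.75 with PM10 and -0.27 and -0.35 with OVA+PM10, each against control. Among 6632 genes with transcripts of 3162 to 11511 bases, the range of the chains, 17.8% lay at least 2-fold below control with PM10 and 4.09% above. In the OVA+PM10 library 9.31% of 6765 such genes were lower than in the control library and 4.54% higher, and 13.2% were higher and 5.04% lower than in the PM10 library. With the running median over transcript length removed, 8 chains were lower and 2 higher in the PM10 library, and the median of the 25 chains moved from -0.92 to -0.46. Col1a1 (-1.43), Col6a1 (-1.91), Col6a2 (-1.81), Col4a3 (-1.26) and Col4a4 (-1.36) were still at least 2-fold lower. Col4a2 (-0.60), Col4a5 (-0.57), Col5a1 (-0.42) and Col12a1 (-0.14) were not, and Col6a3 stood at 1.01. Against control in the OVA+PM10 library, 4 chains were then higher and 4 lower, since Col6a2 (1.22) came past 2-fold and Col12a1 (-0.98) and Col4a2 (-0.73) no longer were. For OVA+PM10 against control, the class medians became 0.84 for fibrillar and -0.73 for type IV chains, a distance of 1.57.

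**Figure D5:**
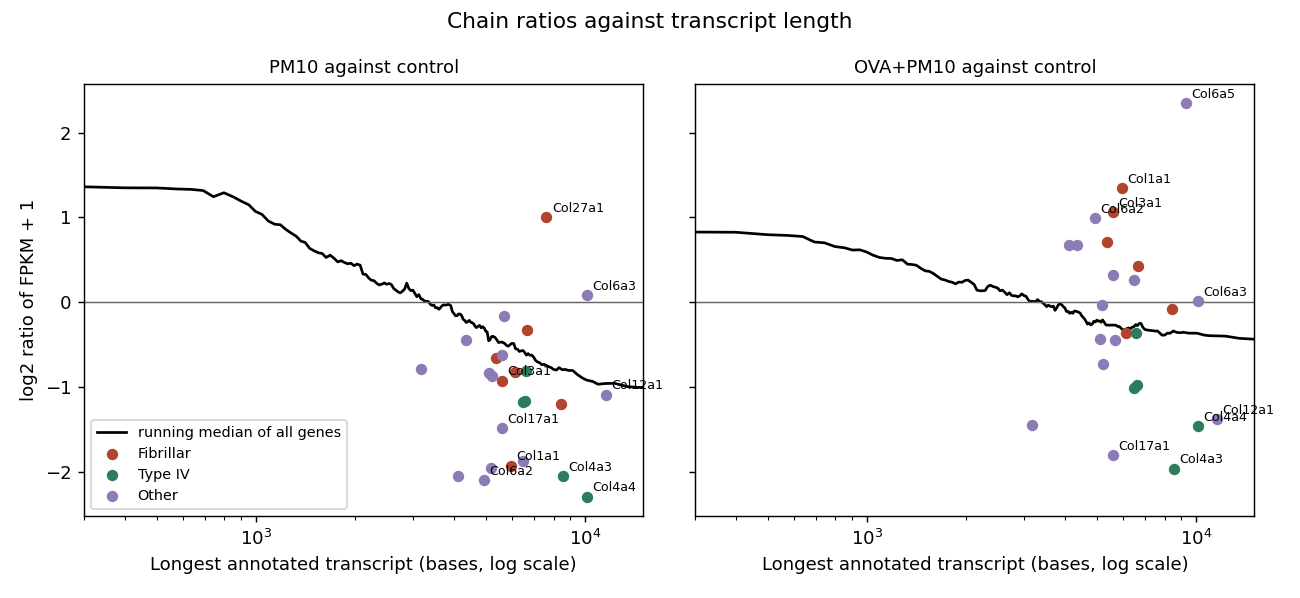
log2 ratio of FPKM + 1 of each chain against the length of its longest annotated transcript (log axis), with the running median of all genes as a line. For PM10 against control the line lies between 0.04 and -0.95 at the lengths of the chains compared, and Col6a3 and Col27a1 lie above it, while for OVA+PM10 against control the major fibrillar chains lie above the line and Col4a3 and Col4a4 below it.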

How the data were processed

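RNA from lung homogenates of 3 groups was sequenced, 1 library each, from 1.3 µg of total RNA with a directional kit, per the labels' protocols. The deposited values are taken as FPKM, which was inferred from the values. TopHat and the mm10 build are named in the submitters' processing notes. For the counting program, annotation and strand use, the sources name nothing. A listed 0 may be an estimate that failed.

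No scaling was applied. Ratios are log2 of FPKM + 1. Chains and genes entered a comparison with at least 1 FPKM in either library, and were called at 2-fold. Approximate reads used the mode of FPKM times length over low values of single-transcript genes, since the authors' lengths are not known. They cover counting error only, and no interval is given. Coordinates and longest transcripts were taken from GENCODE M21 (GRCm38, the assembly of mm10), matched by symbol for 95.5% of genes and all 26 chains. The length trend was a running median over 501 genes. The code was tested on simulated data with known changes. Python 3.11.15 and pandas 2.3.3 were used.

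The chains, classes and gene lists were chosen with earlier results of these data known. Every chain past the limit is named. Of the collagen synthesis, receptor and fibril lists up to 5 genes with the largest ratios and at least 5 FPKM are named, and of marker lists up to 3 of the most abundant. Acan, Bgn, Fmod, Itgb4, Notch3, Rgs5 and the markers given for transcript length or for their order of libraries were named after their values were seen. Lists of lung epithelium and blood cell markers had 1 gene lower and 1 higher each of 8 in the PM10 library, and none lower and 1 higher each in the OVA+PM10 library. With 1 library per group no test and no left-out replicate was possible.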

Additional observations from a re-analysis of the deposited data

How the results depend on the processing

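Counts and class medians were recomputed under 10 alternative settings and 1 more chosen after seeing the data, a rescaling without the marker genes of muscle, squamous epithelium, adipose tissue and cartilage. No called chain changed direction under the 6 of these computed for single chains. A different added FPKM cannot reverse a direction, and median-ratio scaling and the rescaling without markers moved the ratios little. Only equal summed FPKM and the removal of the length trend could thus have reversed a call. The fibrillar median lay above the type IV median under each setting computed for it. That distance was 0.34 between the PM10 and control libraries, 1.58 between OVA+PM10 and control, and 1.09 between the exposed libraries. In the same order it became 0.35, 1.61 and 1.19 with 0.25 FPKM added, 0.47, 1.45 and 0.82 with 5 FPKM added, 0.84, 0.98 and 0.47 with no filter, and 0.25, 1.73 and 1.22 with a filter at 5 FPKM. It was 0.51, 1.47 and 1.02 with equal summed FPKM, and 0.32, 1.57 and 1.04 with the length trend removed. Median-ratio scaling gave 0.40 for the first and 1.08 for the last, and the rescaling without markers 0.35 for the first. With Col7a1, Col15a1 and Col18a1 counted with type IV, the second was 1.55 and the last 0.45. The counts of chains depended more on the setting. For PM10 against control, the 12 lower chains became 20 at 1.5-fold, 4 at 4-fold, 26 with equal summed FPKM and 7 with 5 FPKM added. The 26 are of 28 chains compared under that scaling, 24 of them among the chains of the report and the others Col6a6 and Col28a1, which pass 1 FPKM only once rescaled. The 1 higher chain, Col27a1, became 0 at 4-fold, with equal summed FPKM, with median-ratio scaling, with a filter at 5 FPKM, with 5 FPKM added and with the rescaling without markers, and 2 chains with the length trend removed. For OVA+PM10 against control, the 3 higher chains became 7 at 1.5-fold and 1 at 4-fold and with equal summed FPKM, and the 6 lower chains 0 at 4-fold, 10 with equal summed FPKM (1 of them Col28a1) and 2 with 5 FPKM added. For OVA+PM10 against PM10, the 10 higher chains became 5 at 4-fold, and the 1 lower chain became 2 at 1.5-fold and 0 at 4-fold, with equal summed FPKM, with a filter at 5 FPKM and with 5 FPKM added. Fewer chains were compared under the stricter filter, and for the other settings the cause was not tested. No paired analysis was possible because each group has 1 library.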
